A study of Mus musculus with 24 samples.

Results

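The Hox genes are homeobox transcription factors that stand in 4 clusters, Hoxa on chromosome 6, Hoxb on chromosome 11, Hoxc on chromosome 15 and Hoxd on chromosome 2 of the mouse genome (GRCm38.p6). Every probe set that named a single gene with a Hoxa, Hoxb, Hoxc or Hoxd symbol and number was taken. This gave 33 genes of the 19505 genes named on the array, with 8 in cluster A, 9 in cluster B, 9 in cluster C and 7 in cluster D. Another 6 of the 39 Hox protein genes in RefSeq had no probe set of their own and were not analysed here. Each of the 33 genes had 1 probe set.

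The study measured total RNA of outbred ICR-CD1 mice on 24 Affymetrix arrays, and the mice were grandoffspring of control or of obese grandfathers. The arrays fell into 6 groups of 4, given by 3 sample kinds and 2 lines. The sample kinds were labelled whole embryo at embryonic day 7.5 (ED7.5), whole embryo at embryonic day 14.5 (ED14.5), and PD7.5 liver, taken 7.5 days after birth. The line of the obese grandfathers was labelled SL, and its control line is called control here. Neither the expansion of SL, nor the sex of the animals, nor how many animals or litters stood behind an array was given in the labels, so p-values measure the spread between these arrays. Age and tissue changed together and cannot be told apart.

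In development, Hox genes are switched on in the order in which they stand along the chromosome, from the anterior genes of paralogue groups 1 to 3 to the posterior genes of groups 9 to 13. The resulting code tells cells where they lie along the body axis, the limb and the reproductive tract. Some posterior genes stay on in the adult female tract: Hoxa10 and Hoxa11 are needed in the mouse uterus for implantation and for the stromal cells to turn into decidua, the maternal tissue that encloses the early embryo. Anterior genes pattern the hindbrain and its neural crest, and several Hox genes act in blood progenitors.

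Values are log2 intensities after robust multi-array averaging (RMA), so a difference of 1 is a doubling. A gene was called above background on an array when its value passed the 75th percentile of that array's 5222 control probe sets marked neg, which lay between 5.05 and 6.53. Probe sets differ in brightness, so levels are set against background and between groups of arrays, never between genes. ED7.5 control replicate 2 (background 6.53) and ED14.5 control replicate 1 (background 6.51) had the highest backgrounds of the 24 arrays. Arrays of a group correlated across genes with Pearson's r between 0.981 and 0.993 (genes are not independent replicates).

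The defining markers did not match the embryo labels. At ED7.5, 20 of 21 markers of decidua and uterine stroma were above background on all 4 control arrays, with a mean over the list between 10.64 and 10.75 per array. Prl8a2, which encodes a prolactin-like hormone that decidual cells secrete, stood at 13.32 ± 0.08 (SD, n = 4) and the progesterone receptor Pgr at 10.96 ± 0.13 (SD, n = 4). Of 17 epiblast and primitive streak markers, 2 were above background on all 4 of these arrays and 11 on none. Pou5f1, a pluripotency factor, was above background on 2 of 4. Trophoblast markers were detected in part: 4 of 9 measured were above background on all 4 of these arrays and 2 on none. In the ED7.5 SL group these counts were 5 and 2. Between ED7.5 and ED14.5 in control, 2 of the 9 trophoblast markers rose and 6 fell. At ED14.5, all 15 hepatocyte markers were above background on all 4 arrays of both groups, with albumin (Alb) at 13.51 ± 0.02 (SD, n = 4) in control, whereas 0 of 13 neuron markers and 0 of 18 muscle, cartilage and limb markers were. In PD7.5 liver all 15 hepatocyte markers were above background on all 4 arrays of both groups, as the label states. The cartilage collagen Col2a1 was below background on all 8 ED14.5 arrays. The neuronal tubulin Tubb3 was above background on 1 of 4 control arrays at ED14.5 and on 0 of 4 in PD7.5 liver. Of blood progenitor genes, the receptor Kit stood at 9.02 ± 0.06 (SD, n = 4) at ED14.5 and 7.01 ± 0.28 (SD, n = 4) in PD7.5 liver of control, and the transcription factor Mecom at 6.87 ± 0.37 (SD, n = 4) and 6.96 ± 0.25 (SD, n = 4). From ED14.5 to PD7.5 liver in control, 3 of the 15 measured blood stem and progenitor genes rose and 10 fell. All 8 measured erythroid markers were above background on all 4 ED14.5 arrays of both groups. From there to PD7.5 liver all 8 erythroid markers fell in control. The samples are therefore named below by their age labels only.

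The sequences upstream of the starts of 7 posterior genes are shown because they are the genes on both sides of the boundary described next: Hoxa10, Hoxa11, Hoxd9, Hoxd10 and Hoxd11 were above background at ED7.5, and their neighbours Hoxa13 and Hoxd12 were not. Each line gives the 250 bases before a RefSeq start (GRCm38.p6), 5′ to 3′ on the gene's strand. For Hoxa10 and Hoxd11, which have 2 listed starts, the one nearer to the end of the gene is given. Capitals mark matches, read on both strands, to the core of the TATA box as TATAAA, to the binding motif of the factor NFY as CCAAT, to that of the factor SP1 as GGGCGG, and to the core motif of steroid receptors, the progesterone receptor among them, as AGAACA. Before Hoxa13 a CCAAT and a GGGCGG match stand side by side.
Hoxa10 (chr6:52234940-52235189, minus strand): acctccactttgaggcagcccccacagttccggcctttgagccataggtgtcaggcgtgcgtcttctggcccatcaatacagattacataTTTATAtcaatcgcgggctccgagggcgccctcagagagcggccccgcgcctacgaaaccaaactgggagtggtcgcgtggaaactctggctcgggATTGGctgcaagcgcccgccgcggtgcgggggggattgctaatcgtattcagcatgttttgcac
Hoxa11 (chr6:52245811-52246060, minus strand): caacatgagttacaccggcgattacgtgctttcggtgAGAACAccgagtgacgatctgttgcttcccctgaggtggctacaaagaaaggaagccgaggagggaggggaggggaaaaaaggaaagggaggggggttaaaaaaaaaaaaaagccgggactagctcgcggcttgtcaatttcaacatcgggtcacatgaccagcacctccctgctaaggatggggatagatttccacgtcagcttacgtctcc
Hoxa13 (chr6:52260881-52261130, minus strand): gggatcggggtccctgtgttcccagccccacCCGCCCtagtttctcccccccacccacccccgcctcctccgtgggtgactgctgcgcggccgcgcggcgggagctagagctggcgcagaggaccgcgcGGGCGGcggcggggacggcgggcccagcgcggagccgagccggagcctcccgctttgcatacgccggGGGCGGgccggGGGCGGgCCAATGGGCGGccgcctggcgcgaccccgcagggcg
Hoxd9 (chr2:74697513-74697762, plus strand): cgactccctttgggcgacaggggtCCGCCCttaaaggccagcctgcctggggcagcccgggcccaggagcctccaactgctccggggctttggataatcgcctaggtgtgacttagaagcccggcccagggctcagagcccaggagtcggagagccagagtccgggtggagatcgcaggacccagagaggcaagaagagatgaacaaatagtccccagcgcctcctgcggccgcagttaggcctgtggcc
Hoxd10 (chr2:74691641-74691890, plus strand): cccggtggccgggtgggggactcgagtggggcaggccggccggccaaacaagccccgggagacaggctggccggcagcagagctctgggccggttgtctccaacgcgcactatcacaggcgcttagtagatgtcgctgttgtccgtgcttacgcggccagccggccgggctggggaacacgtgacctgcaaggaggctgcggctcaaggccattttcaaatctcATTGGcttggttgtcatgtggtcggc
Hoxd11 (chr2:74682073-74682322, plus strand): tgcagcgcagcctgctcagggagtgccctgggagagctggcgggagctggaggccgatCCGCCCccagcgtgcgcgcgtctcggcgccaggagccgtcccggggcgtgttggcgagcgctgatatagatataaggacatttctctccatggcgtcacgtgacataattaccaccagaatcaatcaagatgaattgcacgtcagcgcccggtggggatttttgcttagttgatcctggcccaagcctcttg
Hoxd12 (chr2:74674763-74675012, plus strand): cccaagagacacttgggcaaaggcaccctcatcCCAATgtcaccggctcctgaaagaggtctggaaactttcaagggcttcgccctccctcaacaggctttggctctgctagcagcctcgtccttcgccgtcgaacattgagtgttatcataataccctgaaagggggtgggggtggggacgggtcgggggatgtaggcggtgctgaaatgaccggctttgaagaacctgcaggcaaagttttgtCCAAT

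None of the marked motifs was found in all 7 windows. TATAAA was found in the Hoxa10 window alone of the 7, and 12.4% of all 32851 RefSeq windows of this length hold it. AGAACA was found in the Hoxa11 window alone, against 16.1% of all windows. CCAAT was present before Hoxa10, Hoxa13, Hoxd10 and Hoxd12 (33.9% of all windows), hence on both sides of the boundary. GGGCGG was present before Hoxd9, Hoxd11 and, 5 times, Hoxa13 (32.7% of all windows). The 7 windows held between 10 (Hoxd12) and 35 (Hoxa13) CG dinucleotides, and the median over all windows was 6. These matches depend on the start chosen. The window of the other Hoxa10 start held 1 GGGCGG, no TATAAA, no CCAAT and 7 CG dinucleotides. That of the other Hoxd11 start held no GGGCGG and 2 CG dinucleotides. Windows were available for 17 of the 33 genes. A match describes letters in the window and not a bound site, and no match says only that these letters are absent from it.

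The measured Hox genes were mostly undetected, and the detected ones sat in clusters A, B and D. No Hox gene between Hoxa6 and Hoxa10, between Hoxb3 and Hoxb5 or between Hoxd1 and Hoxd8 was measured. Where a detected stretch begins or ends at these gaps therefore cannot be read from these arrays. Above background on 0 of 24 arrays were 18 of the 33 genes, among them all 9 genes of cluster C, 3 of 8 in cluster A, 3 of 9 in cluster B and 3 of 7 in cluster D. By position, 3 of 6 anterior, 6 of 12 central and 9 of 15 posterior genes were never above background. The other 15 were above background on at least 1 array, and 11 of them on all 4 arrays of a group: Hoxa2, Hoxa10, Hoxa11, Hoxb2, Hoxb3, Hoxb7, Hoxb8, Hoxd8, Hoxd9, Hoxd10 and Hoxd11. Of these 11, 8 were above background at ED7.5 only and on 0 arrays at ED14.5 or in PD7.5 liver. Within single groups, 20 to 30 of the 33 Hox genes were above background on 0 of 4 arrays, beside 6832 to 8698 of all 19505 genes. The count over all 24 arrays was not made for genes at large.

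**Figure D1:**
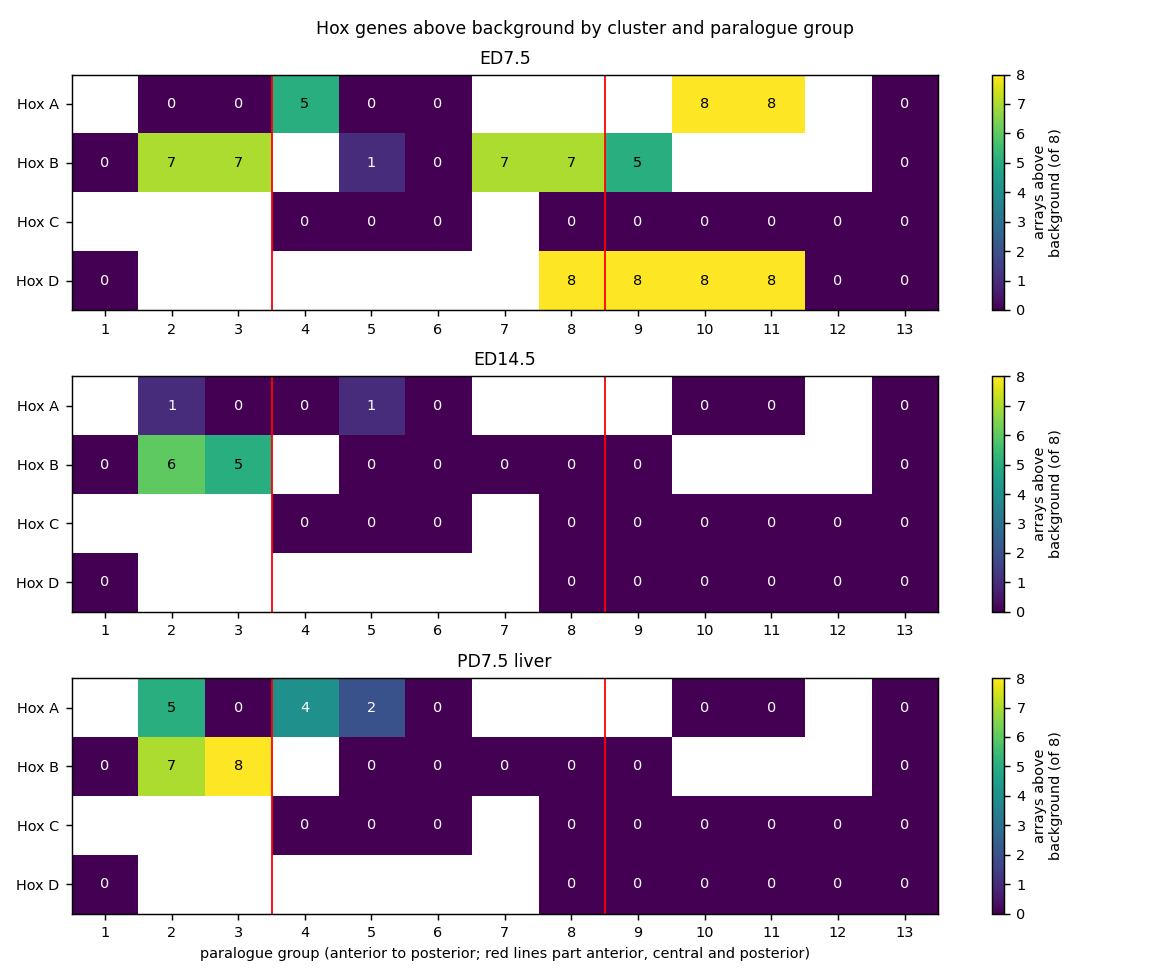
Number of arrays (of 8 per age, control and SL together) on which each Hox gene was above background, by cluster (rows) and paralogue group (columns). White squares hold no gene analysed here. At ED7.5 the squares at 8 are Hoxa10, Hoxa11, Hoxd8, Hoxd9, Hoxd10 and Hoxd11. The squares above 2 are Hoxb2 and Hoxb3 at ED14.5, and Hoxa2, Hoxa4, Hoxb2 and Hoxb3 in PD7.5 liver.

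The count of detected Hox genes ran from 0 to 10 of 33 over the 6 groups. At ED7.5, 6 of 33 Hox genes were above background on all 4 control arrays, where 48.9% of all genes were, and 10 of 33 on all 4 SL arrays, where 55.8% of all genes were. Without ED7.5 control replicate 2 the control count was 11. At ED14.5 it was 0 of 33 in control and 0 of 33 in SL, against 47.8% and 49.2% of all genes. In PD7.5 liver it was 3 of 33 in control (Hoxa2, Hoxb2 and Hoxb3) and 1 of 33 in SL (Hoxb3), against 51.2% and 49.8% of all genes. With the 90th percentile of the control probe sets as background, both liver counts were 0, so the liver signal lay close to background. The ED7.5 counts were then 5 in control and 7 in SL. No test of the Hox count against other genes was made.

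At ED7.5, 5 of 15 posterior genes (Hoxa10, Hoxa11, Hoxd9, Hoxd10 and Hoxd11) were above background on all 4 arrays of both groups, and 0 of 15 were in the 4 older groups. All 5 belonged to paralogue groups 9 to 11 of clusters A and D. Hoxa13, Hoxb13, Hoxc13 and Hoxd13, the terminal genes of the 4 clusters, were below background on all 24 arrays, as was Hoxd12. Of the 6 anterior genes, 3 were above background on all 4 arrays in PD7.5 liver of control and 1 in that of SL, against 0 at ED7.5 in control and 2 in SL. Hoxb2 and Hoxb3 missed this count in ED7.5 control by 1 array each, and the mean of Hoxb2 was 6.63 there and 6.35 in PD7.5 liver control. In cluster D the stretch from Hoxd8 to Hoxd11 was above background on all 8 ED7.5 arrays (4 of 7 genes), and in cluster A Hoxa10 and Hoxa11 were (2 of 8).

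Hoxa10 and Hoxa11, the uterine stroma regulators of cluster A, fell between ED7.5 and ED14.5 in both lines. Hoxa10 read 12.21, 12.16, 12.17 and 12.09 on the 4 ED7.5 control arrays and 12.08, 12.19, 12.11 and 12.12 on the 4 SL arrays. At ED14.5 it read 3.43, 3.93, 3.28 and 3.89 in control and 3.78, 3.36, 3.99 and 3.44 in SL. The ages did not overlap, and all 8 ED14.5 values lay below background. The difference, ED14.5 minus ED7.5, was -8.53 (SE 0.16, adjusted p = 2.00e-10) in control, or at least 65.2-fold lower when ED14.5 is set at its background, and -8.48 (SE 0.14, adjusted p = 2.29e-10) in SL, or at least 65.5-fold lower.

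Hoxa11 read 11.29, 11.28, 11.41 and 11.33 at ED7.5 in control and 11.39, 11.52, 11.36 and 11.39 in SL. At ED14.5 it read 4.70, 4.23, 4.60 and 4.46 in control and 4.42, 4.43, 4.17 and 4.67 in SL, again with no overlap between the ages. It was at least 36.7-fold lower at ED14.5 in control, with a difference of -6.83 (SE 0.12, adjusted p = 1.71e-10), and at least 40.01-fold lower in SL, with a difference of -6.99 (SE 0.12, adjusted p = 2.29e-10). In bulk RNA, fewer cells of a type and less RNA per cell cannot be told apart. Hoxa11os, the antisense transcript next to Hoxa11 that is no Hox protein gene, followed the same order of groups: 9.999, 9.85, 9.70 and 10.06 at ED7.5 in control against 4.79, 4.11, 4.00 and 4.41 at ED14.5, at least 13.7-fold lower (adjusted p = 2.83e-09). Neither labels nor annotation say which strand each probe set reads, so Hoxa11 and Hoxa11os may share signal.

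The 4 detected genes of cluster D changed in the same direction. Hoxd10, which acts in limb and spinal motor neuron patterning, read 10.51, 10.92, 10.79 and 10.46 at ED7.5 in control and 10.68, 10.92, 10.62 and 10.69 in SL. It read 2.51, 3.10, 2.81 and 2.55 at ED14.5 in control and 3.00, 2.48, 3.13 and 2.79 in SL. The ages were far apart in both lines: the difference was -7.93 (SE 0.16, adjusted p = 3.32e-10) in control and -7.88 (SE 0.15, adjusted p = 4.30e-10) in SL, at least 23.2-fold and 24.8-fold lower.

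Hoxd11, which with Hoxa11 shapes the forearm and the kidney, read 10.63, 10.97, 10.86 and 10.37 at ED7.5 in control and 10.57, 11.02, 10.44 and 10.82 in SL. At ED14.5 the values were 3.04, 3.26, 3.14 and 2.35 in control and 2.64, 2.93, 3.56 and 2.61 in SL. Every ED14.5 array lay below background, and the gene was at least 23.9-fold lower in control, with a difference of -7.76 (SE 0.21, adjusted p = 1.21e-09), and at least 24.6-fold lower in SL. The RefSeq gene models of Hoxd10 (chr2:74684273-74695106) and Hoxd11 (chr2:74679558-74687016) overlap, so the 2 probe sets may not be fully separate measurements.

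Hoxd9, also a limb and axial patterning gene, read 8.31, 8.32, 8.46 and 8.49 at ED7.5 in control and 8.63, 8.53, 8.17 and 8.38 in SL, and 4.01, 3.97, 3.72 and 4.25 at ED14.5 in control and 4.19, 3.87, 3.82 and 3.57 in SL. Its difference was -4.41 (SE 0.13, adjusted p = 1.79e-09) in control, at least 4.81-fold lower, and -4.57 (SE 0.15, adjusted p = 7.77e-09) in SL, at least 5.05-fold lower. The groups of the ages did not overlap.

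Hoxd8, the central gene of the cluster, read 7.80, 7.50, 7.83 and 7.79 at ED7.5 in control and 7.75, 8.05, 7.76 and 7.77 in SL. Its ED14.5 values spread more, from 2.95 to 4.15 in control and from 2.90 to 4.85 in SL, all below background. The gene was at least 3.03-fold lower in control, with a difference of -4.45 (SE 0.25, adjusted p = 1.54e-07), and at least 3.34-fold lower in SL. The ED7.5 arrays of a group differed little in these genes of clusters A and D: the SD over the 4 control arrays lay between 0.047 (Hoxa10) and 0.27 (Hoxd11).

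**Figure D2:**
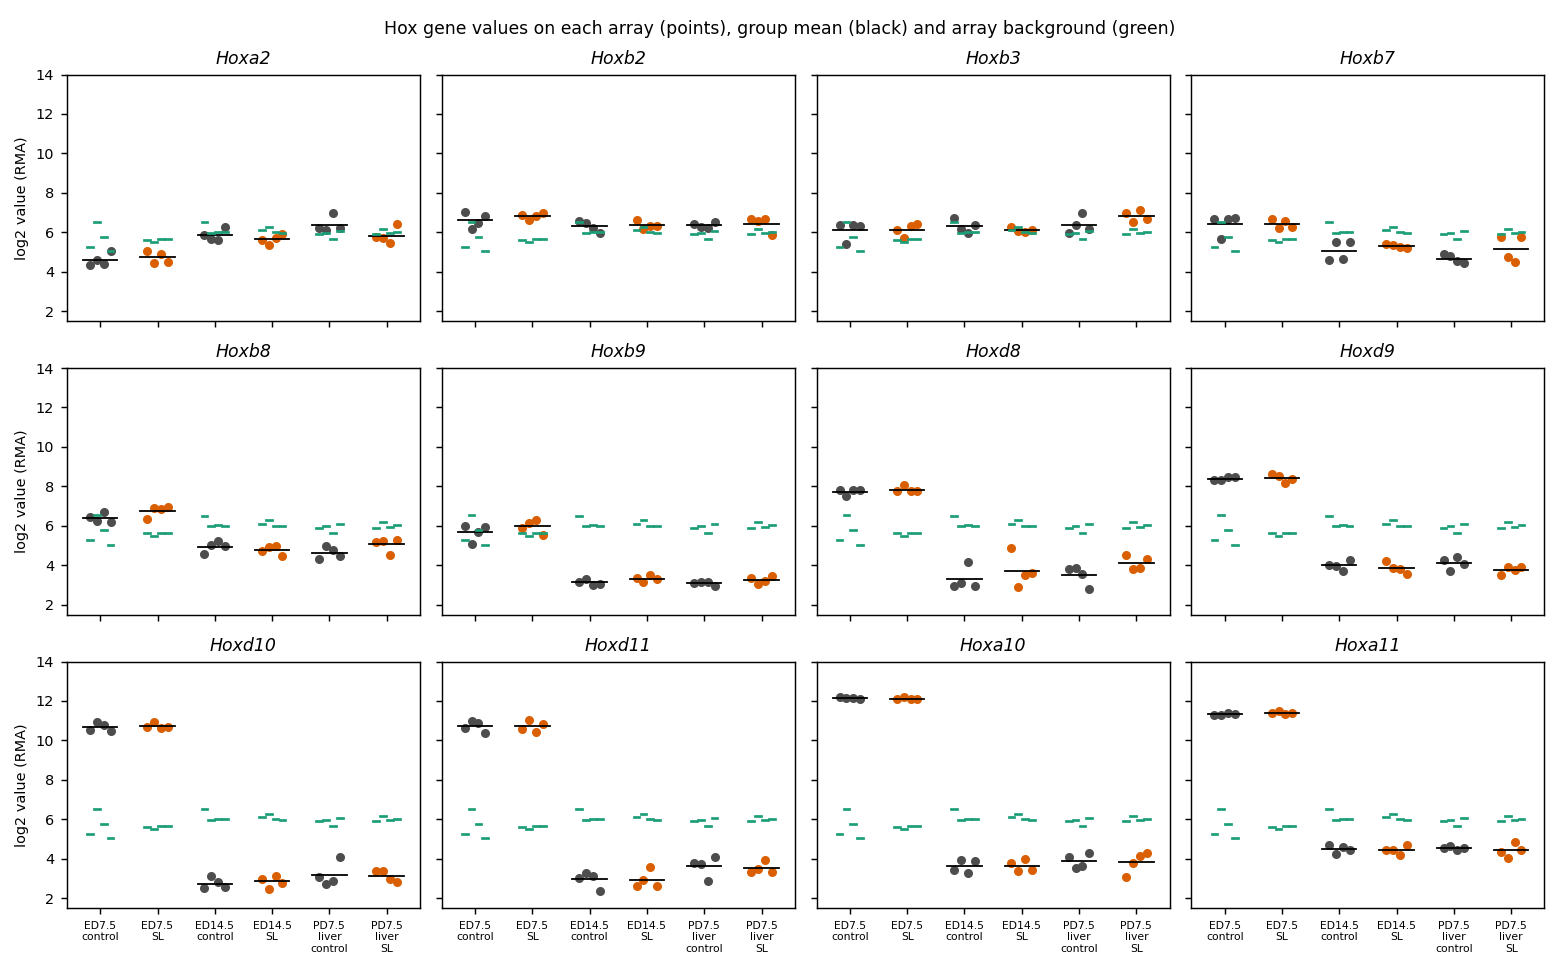
Log2 value (RMA, y axis) of 12 Hox genes on each array (points, control grey and SL orange), with the group mean (black line) and each array's background (green ticks), by group (x axis). Hoxa10, Hoxa11, Hoxd8, Hoxd9, Hoxd10 and Hoxd11 lie above background on the 8 ED7.5 arrays and below it on the other 16; Hoxb2 and Hoxb3 stay near background in all groups.

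Cluster B was detected close to background, at anterior and central genes. Hoxb7 and Hoxb8, central genes of the trunk, were above background at ED7.5 on 3 of 4 control arrays and on 4 of 4 SL arrays. Hoxb7 read 6.68, 5.66, 6.67 and 6.73 in ED7.5 control and 4.58, 5.51, 4.66 and 5.52 in ED14.5 control, at least 1.24-fold lower with a difference of -1.37 (SE 0.30, adjusted p = 0.00303). In the SL line it was at least 1.26-fold lower, with a difference of -1.12 (SE 0.13, adjusted p = 4.16e-05).

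Hoxb8, which is known for its part in blood progenitors, read 6.47, 6.26, 6.68 and 6.19 in ED7.5 control and 4.57, 5.02, 5.23 and 4.97 in ED14.5 control. It was at least 1.21-fold lower at ED14.5 in control and at least 1.58-fold lower in SL, with differences of -1.45 (SE 0.16, adjusted p = 2.89e-05) and -1.98 (SE 0.17, adjusted p = 4.68e-06). Hoxb9 passed background on 2 of 4 ED7.5 control arrays and on 3 of 4 SL arrays, with means of 5.66 ± 0.43 (SD, n = 4) and 5.97 ± 0.33 (SD, n = 4). Its difference was -2.53 (SE 0.20, adjusted p = 1.69e-06) in control and -2.65 (SE 0.17, adjusted p = 5.26e-07) in SL, and no bound is given because its ED7.5 means lie below the background of the ED14.5 arrays.

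The anterior genes Hoxb2 and Hoxb3, which pattern the hindbrain, stayed within a narrow band in all 6 groups. Group means of Hoxb2 lay between 6.31 at ED14.5 in control and 6.83 at ED7.5 in SL. Those of Hoxb3 lay between 6.11 at ED14.5 in SL and 6.82 in PD7.5 liver of SL. Between ED7.5 and ED14.5, Hoxb2 did not pass the threshold in control, -0.32 (SE 0.20, adjusted p = 0.216), and passed it in SL, -0.49 (SE 0.13, adjusted p = 0.00948), where quantile normalization of the arrays compared gave an adjusted p of 0.0648. Hoxb3 passed it in neither line, with 0.17 (SE 0.24, adjusted p = 0.594) in control and -0.03 (SE 0.16, adjusted p = 0.888) in SL.

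Hoxa2, an anterior gene of cluster A that acts in the hindbrain and branchial arches, lay below or close to background. It read 4.36, 4.59, 4.41 and 5.03 at ED7.5 in control, 5.87, 5.68, 5.63 and 6.25 at ED14.5 and 6.22, 6.12, 6.995 and 6.24 in PD7.5 liver. In control it was above background on 4 of 4 liver arrays, 1 of 4 ED14.5 arrays and 0 of 4 ED7.5 arrays, and in SL on 1 of 4, 0 of 4 and 0 of 4. ED14.5 minus ED7.5 was 1.26 (SE 0.18, adjusted p = 2.07e-04) in control and 0.92 (SE 0.17, adjusted p = 0.00116) in SL. No fold is given, since all but 1 of these 16 values lie below background. Between ED14.5 and PD7.5 liver the control difference of 0.54 (SE 0.22, adjusted p = 0.0704) did not pass.

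Across all 33 genes, 17 passed an adjusted p of 0.05 (Benjamini-Hochberg over the 19505 genes) between ED7.5 and ED14.5 in control, 5 higher and 12 lower at ED14.5, and 14 in SL, 1 higher and 13 lower. Of all genes, 51.9% passed in control (25.6% higher, 26.3% lower) and 53.6% in SL (26.4% higher, 27.1% lower). The Hox counts are not read against these shares, since many Hox genes were undetected at both ages. Above background on 0 arrays were 21 (control) and 20 (SL) of 33 at ED7.5, and 30 in each ED14.5 group. The Hox counts include calls of genes below background, named at the end of this paragraph. The groups of the 2 ages did not overlap for 15 of the 33 genes in control, where 49.4% of all genes did not, and for 15 in SL, where 51.2% did not. The genes called in both lines in the same direction, from separate arrays, numbered 11 of 33, where 44.4% of all genes were: Hoxa2 higher, and Hoxa10, Hoxa11, Hoxb6, Hoxb7, Hoxb8, Hoxb9, Hoxd8, Hoxd9, Hoxd10 and Hoxd11 lower. By cluster, the median difference was -0.30 over the 8 genes of cluster A, -0.32 over the 9 of B, 0.36 over the 9 of C and -4.41 over the 7 of D in control, beside 0.03 over all genes. In SL these medians were -0.24, -0.84, 0.09 and -4.11. Every gene of cluster C was below background on all 24 arrays. By position, it was -0.07 over the 6 anterior genes (1 higher, 0 lower), -0.35 over the 12 central genes (4 higher, 6 lower) and -0.13 over the 15 posterior genes (0 higher, 6 lower) in control. In SL it was -0.01 over the anterior genes (1 higher, 1 lower), -0.24 over the central genes (0 higher, 5 lower) and -0.44 over the posterior genes (0 higher, 7 lower). The remaining calls in control were Hoxa4, Hoxa5, Hoxa6, Hoxc5, Hoxc6 and Hoxc8, with differences between -0.63 (Hoxa6) and 0.90 (Hoxa5); Hoxa4 (-0.39) no longer passed in 7 of the 8 fits that left out 1 array. In SL they were Hoxb2, Hoxb5 and Hoxc11, with differences between -0.84 (Hoxb5) and -0.49 (Hoxb2). Hoxa6, Hoxb6, Hoxc5, Hoxc6, Hoxc8 and Hoxc11 were below background on every array, so their calls are not read as changes and no fold is given. The control call of Hoxa5 is not read as a change either, since the gene was below background on all arrays of both control groups compared.

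Between ED14.5 and PD7.5 liver most Hox genes could not be compared, since 30 of 33 were above background on 0 arrays of each ED14.5 group, and 28 (control) and 29 (SL) of 33 on 0 arrays of liver. The count of calls is therefore not read against that of all genes. In control 3 of 33 passed (45.2% of all genes): Hoxa4, higher in liver, and Hoxa3 and Hoxc6. In SL 4 of 33 passed (45.8% of all genes): Hoxa4 and Hoxb3, higher in liver, and Hoxc10 and Hoxd12. Hoxa3, Hoxc6, Hoxc10 and Hoxd12 were below background on all 24 arrays, so their calls are not read as changes. The groups did not overlap for 2 of 33 genes in each line, Hoxa3 and Hoxc6 in control (43.7% of all genes) and Hoxb3 and Hoxc10 in SL (44% of all genes). These comparisons share their ED14.5 arrays with the ones above. Without PD7.5 liver control replicate 3 the control count was 6, and without ED14.5 control replicate 4 it was 5.

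Hoxa4, a central gene, was the one called in both lines in the same direction (1 of 33, and 37% of all genes). It read 5.72, 5.15, 5.11 and 5.25 at ED14.5 and 6.40, 5.58, 6.22 and 6.01 in liver in control, a difference of 0.75 (SE 0.20, adjusted p = 0.0121). The 2 groups overlapped, and 2 of 4 liver arrays were above background. In SL the difference was 0.62 (SE 0.22, adjusted p = 0.0428), and 6 of the 8 fits that left out 1 SL array no longer passed.

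Hoxb3 read 6.25, 6.07, 6.00 and 6.11 at ED14.5 and 6.95, 6.54, 7.13 and 6.66 in liver in SL, with no overlap, a difference of 0.71 (SE 0.15, adjusted p = 0.00295). In control the same difference was 0.07 (SE 0.24, adjusted p = 0.853). The difference between the lines was itself tested as an interaction and did not pass (adjusted p = 0.488). The posterior genes stayed below background: in PD7.5 liver Hoxa10 ranged from 3.55 to 4.28 in control, Hoxa11 from 4.42 to 4.67, Hoxd9 from 3.71 to 4.40, Hoxd10 from 2.73 to 4.10 and Hoxd11 from 2.88 to 4.06, all below background.

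**Figure D3:**
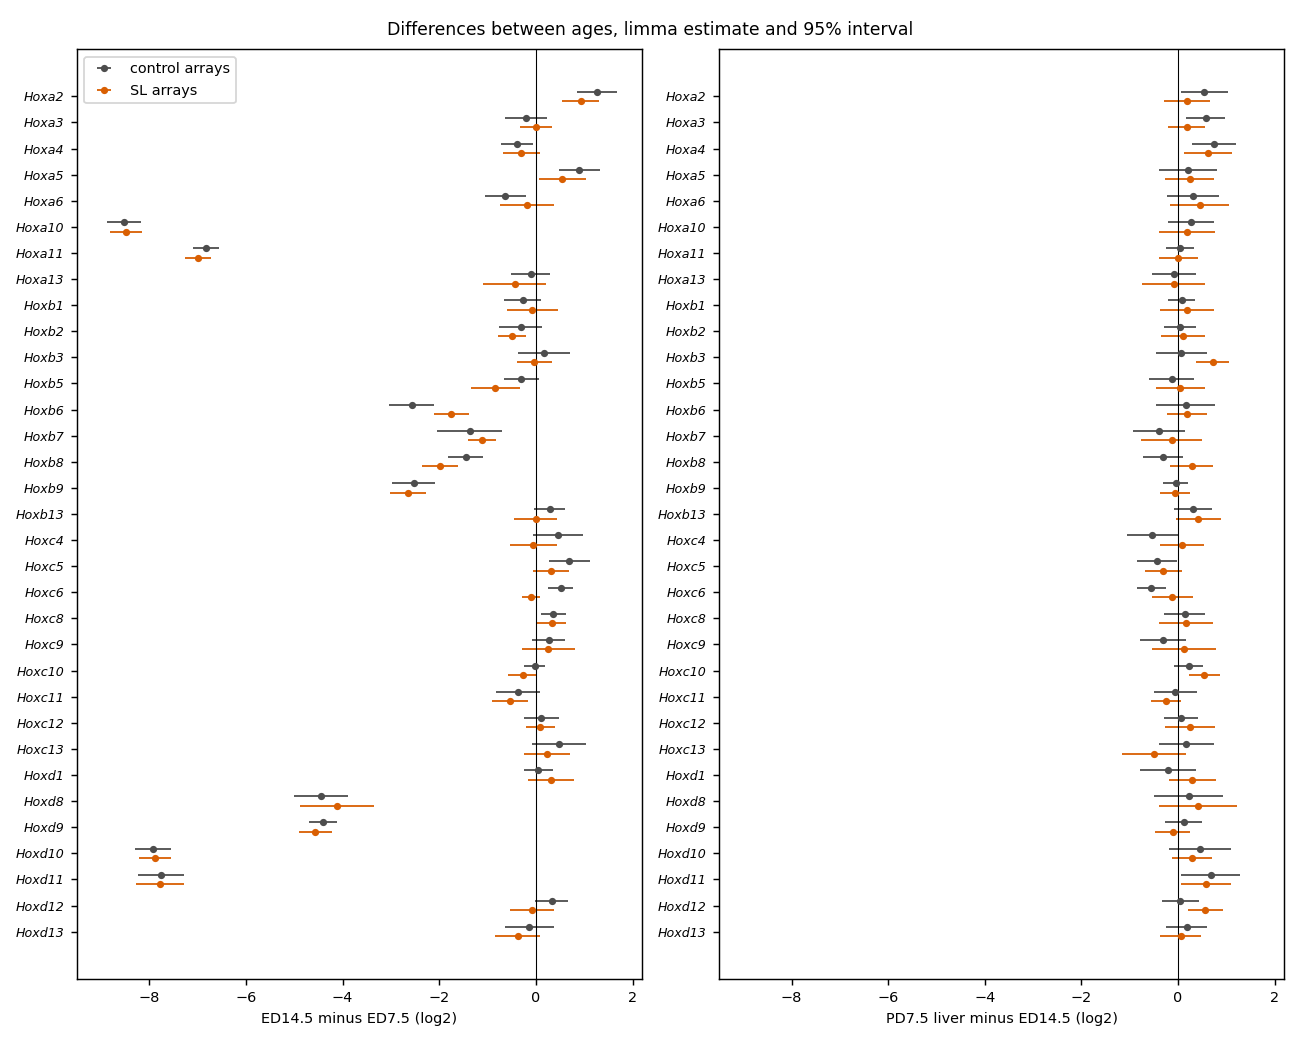
Difference between ages (log2, x axis) for the 33 Hox genes in cluster order (y axis), with 95% intervals from limma, in control (grey) and SL (orange). The left panel shows ED14.5 minus ED7.5, where Hoxa10, Hoxa11, Hoxd8, Hoxd9, Hoxd10 and Hoxd11 lie between -8.53 and -4.11; the right panel shows PD7.5 liver minus ED14.5, where every estimate lies between -0.55 and 0.75.

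The partners of the Hox proteins moved in mixed directions. Of 9 measured TALE homeobox cofactors (genes of the Pbx, Meis and Pknox families, whose proteins bind DNA together with Hox proteins, and the related Tgif1), 2 rose and 3 fell between ED7.5 and ED14.5 in control, where 25.6% of all genes rose and 26.3% fell. The list median difference was 0.04 in control and -0.23 in SL, and the median over all genes was 0.03 in control. Pknox2 read 10.38, 10.61, 10.59 and 10.23 at ED7.5 and 4.53, 4.97, 4.47 and 4.91 at ED14.5, with no overlap, and was at least 19.97-fold lower (adjusted p = 1.05e-09). Meis2 fell by 2.77 and Meis1 by 1.46 on the log2 scale, both staying above background on all arrays. Pbx3 rose by 1.40 between ED7.5 and ED14.5 and fell by 1.44 from ED14.5 to PD7.5 liver. Between ED7.5 and ED14.5 in SL, 3 of the 9 cofactors rose and 4 fell (26.4% and 27.1% of all genes).

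Of 14 measured Hox inducers and retinoic acid genes, 0 rose and 7 fell between ED7.5 and ED14.5 in control (25.6% and 26.3% of all genes), with a list median difference of -0.61. Aldh1a2, which makes retinoic acid, read 9.55, 9.58, 10.07 and 9.88 at ED7.5 and 4.98, 5.30, 5.48 and 5.01 at ED14.5. It was at least 12.5-fold lower (adjusted p = 5.58e-09). The retinoic acid receptor Rara fell by 2.39 and rose by 1.21 from ED14.5 to PD7.5 liver. Cdx2, which switches on central and posterior Hox genes in the tail end of the embryo, was below background on all 24 arrays. Cdx1, Cdx4, Wnt3a and Fgf8 were above background on none. Between ED7.5 and ED14.5 in SL, 1 of the 14 genes rose and 7 fell (26.4% and 27.1% of all genes).

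Of 18 measured Polycomb genes, whose proteins keep Hox genes silent, 5 rose and 6 fell between ED7.5 and ED14.5 in control, near the shares of all genes (25.6% and 26.3%), with a list median difference of -0.23. The histone methyltransferase Ezh2 rose by 1.72 and its partner Suz12 by 1.45. The reader protein Cbx2 fell by 2.77 and Cbx8 by 1.92, at least 3.16-fold for Cbx8, which no ED14.5 array held above background. Between the same ages in SL, 5 of the 18 Polycomb genes rose and 9 fell. There 26.4% of all genes rose and 27.1% fell, so the share of Polycomb genes that fell was larger in SL. Of 12 Trithorax genes, whose proteins keep Hox genes active, 7 rose and 1 fell between ED7.5 and ED14.5 in control. Of all genes, 25.6% rose and 26.3% fell there. The list median difference was 0.56. Dpy30 rose by 1.09 and Wdr5 by 0.87, both subunits of the methyltransferase complexes, and the demethylase Kdm6b fell by 0.68. From ED14.5 to PD7.5 liver in control, 1 of the 12 Trithorax genes rose and 9 fell (20.5% and 24.6% of all genes). The list median difference was -0.56 there. The SL line had 7 higher and 2 lower at ED14.5 than at ED7.5, and 1 higher and 7 lower in liver than at ED14.5.

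Most markers of decidua and uterine stroma were higher at ED7.5 than at ED14.5, as were 6 of the 15 posterior Hox genes in control. The mean over the marker list per array was 10.64 to 10.75 in ED7.5 control, 6.07 to 6.18 in ED14.5 control and 7.29 to 7.56 in PD7.5 liver control. Above background on all 4 arrays were 20, 10 and 14 of the 21 markers in these groups, and 19 of 21 fell and 2 rose between ED7.5 and ED14.5 in control (26.3% and 25.6% of all genes). From ED14.5 to PD7.5 liver 10 of 21 rose and 0 fell in control (20.5% and 24.6% of all genes). All 15 posterior Hox genes were below background on every array of these groups, so they cannot be compared with the markers here. Pgr was at least 28.5-fold lower at ED14.5 than at ED7.5 in control, and Hand2, a progesterone-responsive regulator of the uterine stroma, fell by 5.20 on the log2 scale. Prl8a2, Prl3c1, Prl6a1, Pgr, Esr1, Wnt4, Tdo2 and Aoc1 were above background on no ED14.5 control array. The part of this tissue in the Hox values was not tested, and the list was put together with earlier results of these data known.

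**Figure D4:**
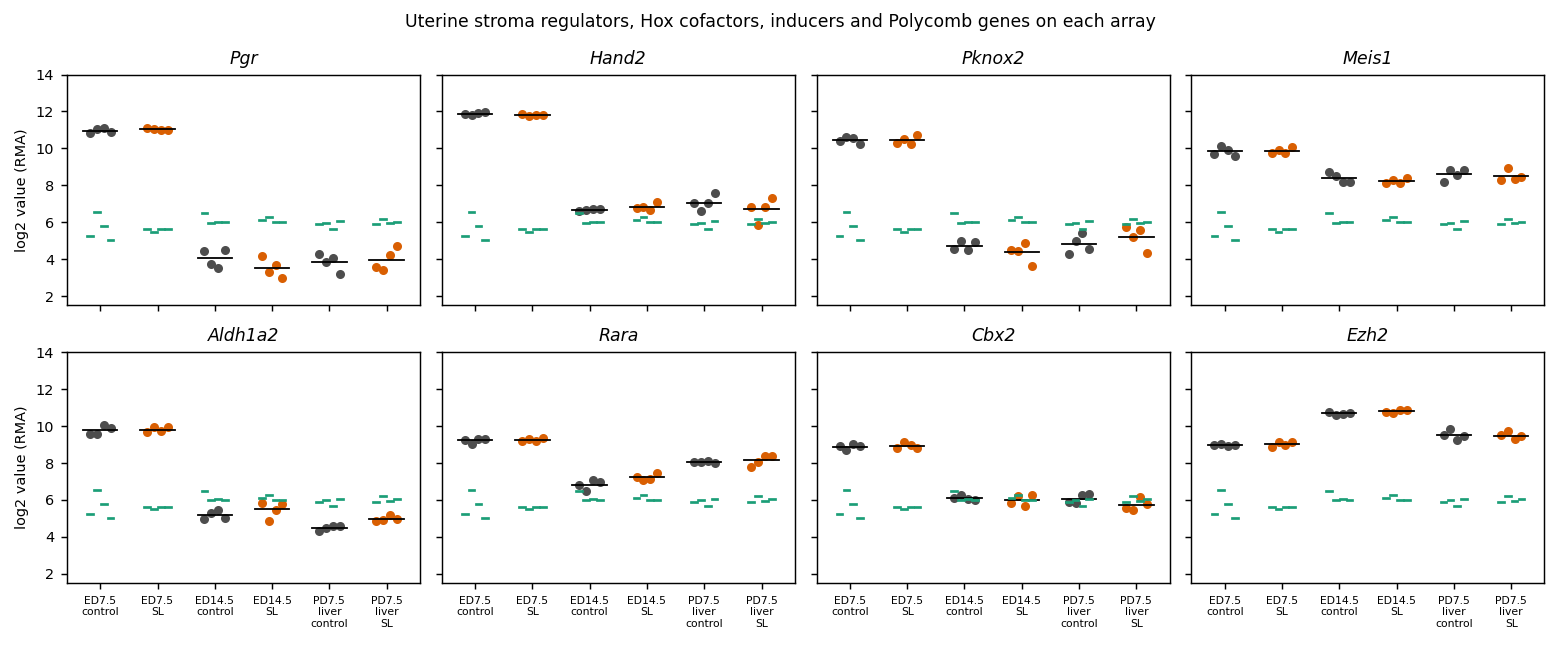
Log2 value (RMA, y axis) of uterine stroma regulators (Pgr, Hand2), Hox cofactors (Pknox2, Meis1), retinoic acid genes (Aldh1a2, Rara) and Polycomb genes (Cbx2, Ezh2) on each array by group (x axis), marked as in the plot of Hox values. Pgr, Pknox2 and Aldh1a2 lie above background on the 8 ED7.5 arrays and below it on the other 16, and Ezh2 is higher at ED14.5 than at ED7.5.

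The comparison of SL with control asked whether Hox expression differed between the lines, and no Hox gene passed the threshold at any age. Decidua is maternal tissue and its markers were high at ED7.5, so the ED7.5 values may describe the mother as well as the grandoffspring. How much of that RNA came from the mother was not tested. At ED7.5 0 of 33 were called, where 0.00513% of all genes were. At ED14.5 it was 0 of 33, where 0.0513% of all genes were called, 0.0308% higher and 0.0205% lower in SL. In PD7.5 liver it was 0 of 33, where 0% of all genes were. At an unadjusted p under 0.05, 1, 2 and 2 of the 33 Hox genes passed in these comparisons, beside 1070, 2223 and 1543 of all 19505 genes. The median difference over the 33 genes was 0.09 at ED7.5, -0.08 at ED14.5 and -0.05 in PD7.5 liver.

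For the 6 genes above background on all 8 ED7.5 arrays, the intervals bound what the arrays could miss. SL minus control was -0.03 for Hoxa10, with a 95% interval of -0.23 to 0.17. It was 0.09 for Hoxa11 (-0.12 to 0.29) and 0.06 for Hoxd10 (-0.24 to 0.35). For Hoxd9 it was 0.03 (-0.24 to 0.31) and for Hoxd8 0.10 (-0.16 to 0.37). The interval of Hoxd11, -0.37 to 0.38, was the widest of these 6. Hoxb8 had the third smallest p of the 33 genes at that age, with a difference of 0.36 (SE 0.16, adjusted p = 0.913) and values of 6.47, 6.26, 6.68 and 6.19 in control against 6.34, 6.89, 6.86 and 6.93 in SL, which overlap.

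The smallest p values of each age belonged mostly to genes below background. At ED7.5 Hoxb6 differed by -0.44 (SE 0.16, adjusted p = 0.821) and Hoxd1 by -0.43 (SE 0.20, adjusted p = 0.912). At ED14.5 Hoxc6 read 5.62, 5.48, 5.37 and 5.19 in control and 4.98, 4.96, 4.98 and 4.93 in SL, a difference of -0.45 (SE 0.11, adjusted p = 0.173). All 8 values lay below background, and the groups did not overlap, as was the case for 7.98% of all genes. Hoxb5 differed by -0.48 (SE 0.18, adjusted p = 0.376) and Hoxb6 by 0.38 (SE 0.21, adjusted p = 0.523). The ED7.5 groups of Hoxc6 did not overlap either, with SL higher there, where 3.05% of all genes did not.

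In PD7.5 liver Hoxa3 differed by -0.47 (SE 0.19, adjusted p = 0.623), Hoxd8 by 0.64 (SE 0.26, adjusted p = 0.625) and Hoxc4 by 0.41 (SE 0.18, adjusted p = 0.628), each below background on all 8 liver arrays. Of the genes detected in liver, Hoxa2 read 6.22, 6.12, 6.995 and 6.24 in control and 5.74, 5.69, 5.45 and 6.44 in SL, a difference of -0.56 (SE 0.26, adjusted p = 0.635) with an interval of -1.13 to 0.01. Those groups overlapped. For Hoxb2 the difference was 0.09 (SE 0.20, adjusted p = 0.94) and for Hoxb3 0.46 (SE 0.23, adjusted p = 0.664). No liver comparison of a Hox gene had groups apart, against 4.43% of all genes.

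Whether the SL difference itself changed with age was tested in one fit of all 24 arrays. None of the 33 Hox genes passed for ED14.5 against ED7.5 (0.0769% of all genes did), for PD7.5 liver against ED14.5 (0.0256%) or for PD7.5 liver against ED7.5 (0.00513%). At an unadjusted p under 0.05, 2, 2 and 4 Hox genes passed. None of the TALE, inducer, Polycomb or Trithorax genes passed in any SL comparison by limma, and their smallest adjusted p was 0.0656, in the Trithorax list at ED14.5.

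**Figure D5:**
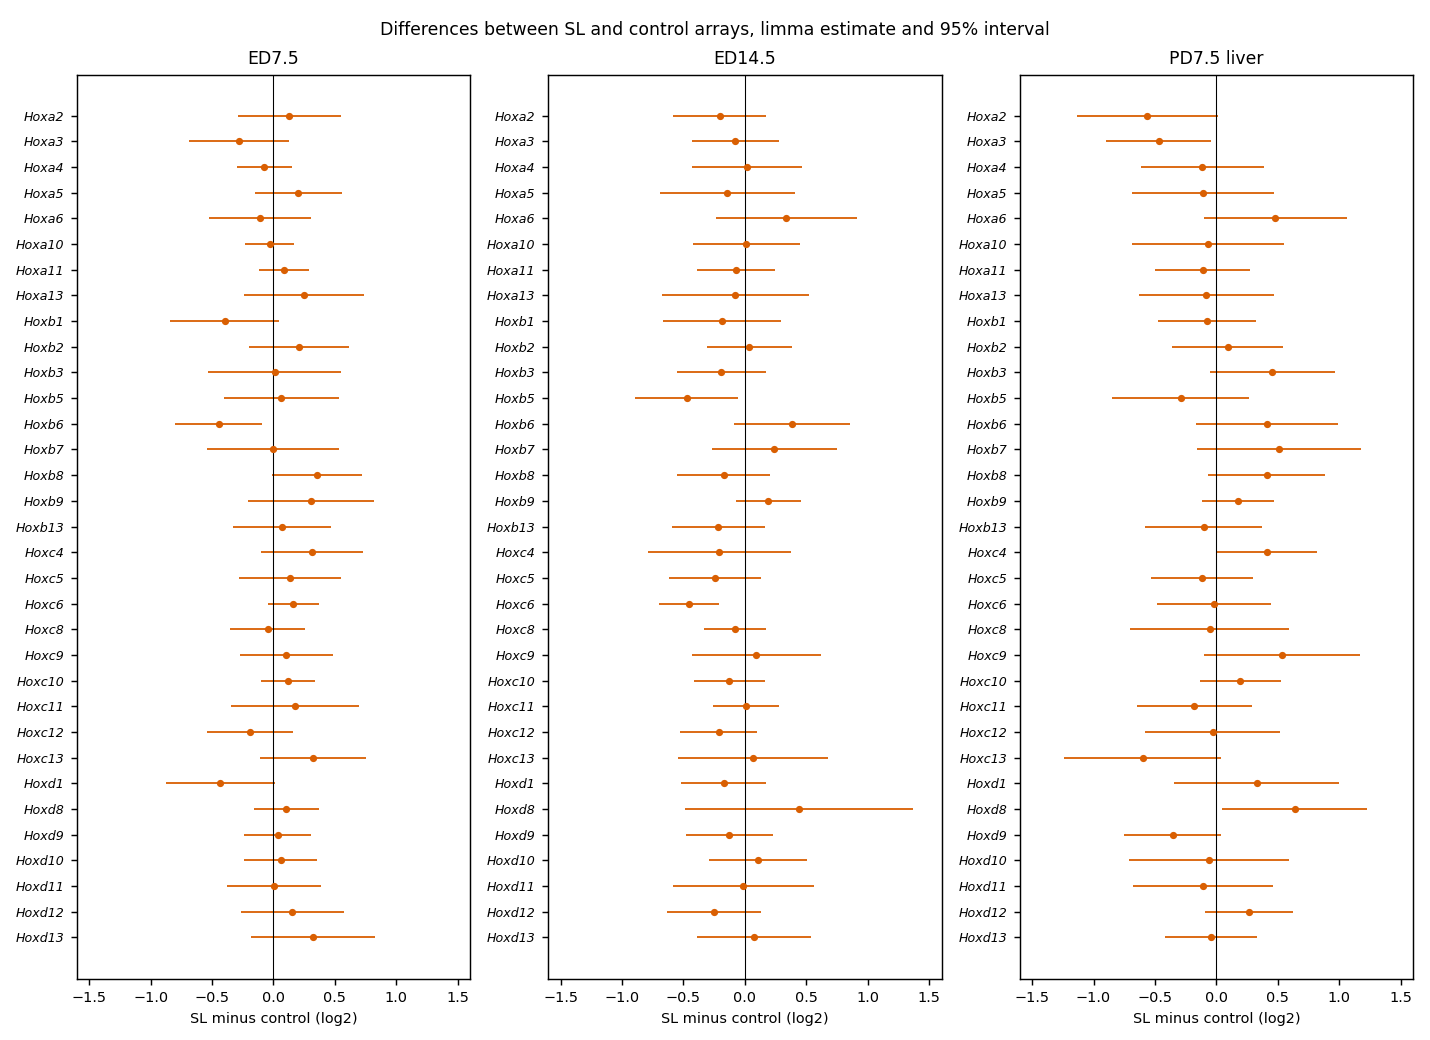
SL minus control (log2, x axis) for the 33 Hox genes in cluster order (y axis) with 95% intervals from limma, at ED7.5, at ED14.5 and in PD7.5 liver. Estimates lie between -0.44 and 0.36 at ED7.5, between -0.48 and 0.44 at ED14.5 and between -0.60 and 0.64 in liver, and no gene passed an adjusted p of 0.05.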

How the data were processed

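Total RNA extracted with Trizol from snap-frozen samples was labelled with biotin and hybridised to Affymetrix arrays, per the labels' protocols. The deposited values are log2 intensities, which the authors made by RMA with the oligo package, per the submitters' processing notes; versions and scanner files were not used here. From the 19572 probe sets that name 1 gene in the platform annotation, the brightest was kept for each of 19505 genes. Groups were compared with limma 3.58.1 (R 4.3.3, lmFit and eBayes, two-sided) on the 8 arrays of each pair of groups, without covariates, and p-values were adjusted by the Benjamini-Hochberg method over all 19505 genes at a threshold of 0.05. The fit was tested on simulated data. The number of arrays limits the precision.

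Background was the 75th percentile of an array's control probe sets marked neg in their IDs. A fold against a group below background on all 4 arrays is a bound: the bright group's mean minus the mean, over the dim arrays, of the higher of the value and the background. The Hox genes, the lists and the tests were chosen with earlier results of these data known. Genes named from the cofactor, inducer, Polycomb and Trithorax lists are those changed most, at most 2 higher and 2 lower, of the genes called and above background on all 4 arrays of a group, and Cdx2, Meis1 and Ezh2 whatever their values; Hoxa11os was added as a neighbour. For each SL comparison the 3 Hox genes with the smallest p are named. Replicate numbers of different groups were not used to pair the arrays. Same-numbered arrays correlated between -0.165 and 0.116 in their deviations from the group means. The arrays that correlated best with their own number ranged from 0 to 6 of 8. The count was 6 for SL minus control in PD7.5 liver and for ED14.5 minus ED7.5 in SL, so pairing there is not excluded. Promoter windows and gene positions are RefSeq's (GRCm38.p6).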

Additional observations from a re-analysis of the deposited data

Results flagged for a closer look

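Of 86 sets of 4 arrays examined for the Hox genes reported array by array, 10 held an array that stood apart from the other 3 by Dixon's test, which chance gives in about 1 of 20 sets. ED7.5 control replicate 2, the array with the highest background of the 24 (6.53), was the low array for Hoxb3 (5.42, the others 6.32 to 6.39), Hoxb7 (5.66, the others 6.67 to 6.73) and Hoxd8 (7.50, the others 7.79 to 7.83). Among the SL arrays of ED7.5, Hoxb8 was low on replicate 1 (6.34, the others 6.86 to 6.93) and Hoxd8 was high on replicate 2 (8.05, the others 7.75 to 7.77). At ED14.5 in control, Hoxb6 was high on replicate 2 (3.17, the others 2.30 to 2.39) and Hoxd8 on replicate 3 (4.15, the others 2.95 to 3.08), both below background. In PD7.5 liver, Hoxa2 was high on control replicate 3 (6.995, the others 6.12 to 6.24). On the SL side of liver, Hoxb2 was low on replicate 4 (5.84, the others 6.57 to 6.69) and Hoxb8 on replicate 3 (4.51, the others 5.17 to 5.30).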

How the results depend on the processing

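The falls of Hoxa10, Hoxa11, Hoxd8, Hoxd9, Hoxd10 and Hoxd11 from ED7.5 to ED14.5 kept their direction and their call in both lines under every alternative run, among them the fit without the 2 arrays of highest background, added after seeing the data, in which 16 Hox genes were called. No alternative called a Hox gene in an SL comparison or in the test of the SL difference between ages. Leaving out 1 array at a time, the Hox genes called ranged from 14 to 18 (ED14.5 minus ED7.5, control), 13 to 17 (SL), 2 to 6 (PD7.5 liver minus ED14.5, control) and 3 to 5 (SL). In PD7.5 liver minus ED14.5 the count was 5 in control with a replicate block, and 2 in SL without the dimmest 33% of genes and with quantile normalization. The block changed no other Hox count by more than 1.5 times.

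All genes called in SL minus control at ED7.5 numbered 3 with an intensity trend and robust prior, 12 with all 24 arrays in one fit, and 0 to 2 without 1 array. At ED14.5 they numbered 283, 79 and 1 to 5 in these fits, 0 with a replicate block and 99 without the dimmest genes. In liver they numbered 5 with all 24 arrays. Requiring 3 of 4 arrays above background gave 11 Hox genes in ED7.5 control, 2 and 1 in ED14.5 control and SL, and 2 in PD7.5 liver SL. With the 90th percentile as background both liver counts were 0, and the ED7.5 counts were 5 in control and 7 in SL. Leaving out 1 array gave 6 to 11 in ED7.5 control, 0 to 1 in each ED14.5 group and 1 to 2 in PD7.5 liver SL.

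Signs turned only for small differences of genes near background. Without 1 array, Hoxb2 in PD7.5 liver minus ED14.5, control, ranged from -0.0686 to 0.12, Hoxb3 there from -0.132 to 0.206, and Hoxb3 in ED14.5 minus ED7.5, SL, from -0.178 to 0.0683. Hoxb2 in the first became -0.0355 with quantile normalization, -0.0686 without ED14.5 control replicate 4 and -0.0236 without liver control replicate 4. Hoxb3 became -0.0512 without ED14.5 control replicate 3 and -0.132 without liver control replicate 3. Hoxb3 in ED14.5 minus ED7.5, SL, became 0.164 with quantile normalization, 0.0269 and 0.0683 without ED7.5 SL replicates 3 and 4, and 0.0058 without ED14.5 SL replicate 3. The causes were not tested. Of the 18 Hox genes below background on all 24 arrays, changes below background could not be measured.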
